A study of Mus musculus with 16 samples.

Results

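The genes described are 9 astrocyte markers, Aqp4, Gfap, Aldh1l1, Slc1a2, Slc1a3, S100b, Aldoc, Slc4a4 and Glul, out of 26466 genes measured by bulk RNA sequencing of transplanted mouse glioblastomas. They were chosen by symbol as known markers of astrocytes, with earlier results of these data in view, and each symbol matched 1 gene of the table of all 16 libraries, each from 1 tumour. The 2 kinds of tumour, called Type 1 and Type 2 and described by the submitters as lineage-based models, were compared with and without depletion of tumour-associated macrophages (TAMs). The groups were 4 Type 2 TAM depleted, 4 Type 2 Control, 3 Type 1 TAM depleted and 5 Type 1 Control tumours. All were transplanted tumours. The genotype and cell of origin of each kind, the strain, sex and age of the hosts, the method and timing of depletion and what the controls received are not stated in the labels used here. In the sample descriptions Type 2 Control 4 is named T2_NG2Con and Type 2 TAM depleted 4 T2_UN2, while the other libraries carry plain numbers. What these names mean is not stated. The labels do not say which animal carried which tumour. The p-values below therefore speak of the spread among these libraries, which may be partly technical.

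Astrocytes are the glial cells that take up glutamate and potassium released by neurons, carry water and bicarbonate across their membranes, supply neurons with metabolites, and wrap blood vessels with their endfeet. Slc1a2 and Slc1a3 encode the main glutamate transporters of the brain, and Glul encodes glutamine synthetase, which turns the captured glutamate into glutamine. Aqp4 is the water channel of the endfeet, and Slc4a4 is a sodium bicarbonate cotransporter. Gfap is an intermediate filament protein that increases in reactive astrocytes, and S100b is a calcium-binding protein that cells of the oligodendrocyte lineage also make. Aldoc is a brain form of the glycolytic enzyme aldolase, and Aldh1l1 is a folate enzyme used as a broad astrocyte marker. Glioma cells can express several of these genes. A whole-tumour library therefore sums normal astrocytes and tumour cells, and in such bulk RNA fewer cells of a type and less RNA per cell cannot be told apart.

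Promoter sequence is shown for 4 members whose patterns differ below: Gfap and Slc1a3, which varied least among libraries; Slc1a2, which varied most; and S100b, whose estimates in Type 2 depletion and in Type 2 Control over Type 1 Control differed in sign from most of the others. The sequences are RefSeq promoters (build GRCm38.p6), each running from 250 bases before to 50 bases after an annotated start. They were read 5′ to 3′ on the gene's strand. Capitals mark the letters TTCNNNGAA, the core of a STAT3 binding site, or TTGGCA, the short site bound by nuclear factor I proteins. Both factors are known to act in astrocyte development. The windows are chr11:102897151-102897450 on the minus strand (Gfap), chr15:8710758-8711057 on the minus strand (Slc1a3), chr2:102706188-102706487 on the plus strand (Slc1a2) and chr10:76253586-76253885 on the plus strand (S100b). The Slc1a2 and Gfap windows lie inside the annotated genes, downstream of the outermost starts (chr2:102658659 and chr11:102900912). They may not be the main promoters of these genes.
Gfap: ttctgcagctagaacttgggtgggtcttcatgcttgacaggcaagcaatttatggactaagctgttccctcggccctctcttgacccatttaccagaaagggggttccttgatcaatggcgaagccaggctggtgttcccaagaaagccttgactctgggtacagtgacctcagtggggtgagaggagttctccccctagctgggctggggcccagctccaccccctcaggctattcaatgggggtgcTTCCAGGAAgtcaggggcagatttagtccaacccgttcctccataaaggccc
Slc1a3: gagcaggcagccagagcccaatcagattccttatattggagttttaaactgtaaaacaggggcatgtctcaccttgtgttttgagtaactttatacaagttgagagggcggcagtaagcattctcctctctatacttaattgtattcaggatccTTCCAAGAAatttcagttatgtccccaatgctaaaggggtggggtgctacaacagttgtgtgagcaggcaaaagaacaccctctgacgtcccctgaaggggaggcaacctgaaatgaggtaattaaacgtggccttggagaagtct
Slc1a2: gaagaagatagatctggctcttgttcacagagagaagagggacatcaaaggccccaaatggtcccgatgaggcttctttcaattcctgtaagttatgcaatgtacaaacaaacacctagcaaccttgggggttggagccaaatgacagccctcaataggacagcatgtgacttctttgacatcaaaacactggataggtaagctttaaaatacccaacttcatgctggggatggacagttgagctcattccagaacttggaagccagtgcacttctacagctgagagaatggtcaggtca
S100b: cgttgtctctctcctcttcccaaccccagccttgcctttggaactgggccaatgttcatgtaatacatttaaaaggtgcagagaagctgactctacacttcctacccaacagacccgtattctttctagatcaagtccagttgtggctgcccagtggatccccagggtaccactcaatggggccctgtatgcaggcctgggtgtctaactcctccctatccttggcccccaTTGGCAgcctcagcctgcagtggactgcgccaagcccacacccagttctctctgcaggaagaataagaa
Both strands were searched in 10 promoter entries of 8 members, and Aqp4 was not searched. The STAT letters were found in 3 entries (Gfap, Slc1a3 and 1 of 2 Aldoc entries) and the nuclear factor I letters in 2 (S100b and the other Aldoc entry). Of 32851 RefSeq mouse promoters of the same length, 8.30% held the STAT letters and 14.1% the nuclear factor I letters. A match is a description of the letters in the window.

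In the GENCODE annotation of the mouse genome (build GRCm38) all 9 are protein-coding genes. The glutamate genes lie at chr2:102658659-102790784 (Slc1a2), chr15:8634124-8710764 (Slc1a3) and chr1:153899944-153909723 (Glul). Aqp4 lies at chr18:15389496-15410982 and Slc4a4 at chr5:88886818-89239653. Gfap is at chr11:102887336-102900912, S100b at chr10:76253853-76261159, Aldoc at chr11:78322968-78327781 and Aldh1l1 at chr6:90486427-90600203. The library kit does not mark strand, so reads of overlapping genes cannot be told apart. An antisense gene, Gm13872, shares 189 exonic bases with Slc1a2, and Teddm2 shares 116 bases with Glul on the opposite strand. Gm13872 had at most 5.71% as many reads as Slc1a2 in any library, and Teddm2 at most 12.3% as many as Glul. Aldh1l1 overlaps Gm45901 by 105 bases and Gm15756 by 499 bases, and neither is in the table of all libraries.

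Levels are given as normalized counts, recovered from the deposited values, which put the libraries on 1 scale. Depth was 4.21 to 18.3 M (mega) recovered reads per library. The lowest read number behind any value of the 9 genes was 14 (Aldh1l1 in Type 2 Control 1), so counting error matters for Aldh1l1 in that library. The libraries fell into 2 sets by reads in olfactory and vomeronasal receptor genes, which brain tumours are not known to use. A set of 9 high-background libraries had 2666 to 8480 such reads per M reads and 13.8% to 58.2% of all reads in the single gene Gm10800. The 7 low-background libraries had 94.98 to 779 per M and 0.0491% to 2.03%. Depth split in the same way, at 4.21 to 9.16 M recovered reads in the high-background and 13.1 to 18.3 M in the low-background libraries. High background covered Type 2 TAM depleted 3 and 4, Type 2 Control 1 and 3 and all 5 Type 1 Control libraries. Low background covered Type 2 TAM depleted 1 and 2, Type 2 Control 2 and 4 and all 3 Type 1 TAM depleted libraries. In Type 1 the set, with its depth, and the depletion therefore cannot be told apart, whereas in Type 2 each set held 2 libraries of each group.

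The label of the genes was checked against 18 other astrocyte markers, among them Gja1, Fgfr3 and Sox9. The mean standardized log2 level of the 9 genes was correlated with the mean of that list. It gave r = 0.96 over the 9 high-background libraries and r = 0.99 over the 7 low-background ones. The same mean gave 0.79 and 0.87 with a list of neuron genes, and 0.68 and 0.88 with mature oligodendrocyte genes. S100b by itself reached only 0.25 and 0.43 with the other astrocyte markers. All 9 genes were detected in every library. Per kilobase of exon, Glul (mean 988 normalized counts per kb over 16 libraries) and Gfap (941) had the highest levels. Slc1a2 (613) and Aldoc (530) came next, then Slc1a3 and S100b (both 257), Aqp4 (150), Slc4a4 (85.9) and Aldh1l1 (32.6). The spread was widest for Slc1a2, whose highest library, Type 2 TAM depleted 2, held 116 times the level of its lowest, Type 2 Control 1. It was narrowest for Slc1a3 (5.89 times) and Gfap (8.44 times). Type 2 TAM depleted 2 was the highest of all 16 libraries for Slc1a2, Glul, Aldoc, Slc4a4 and Aldh1l1. Type 2 Control 1 was the lowest for Slc1a2, Slc1a3, Glul and Aqp4.

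**Figure D1:**
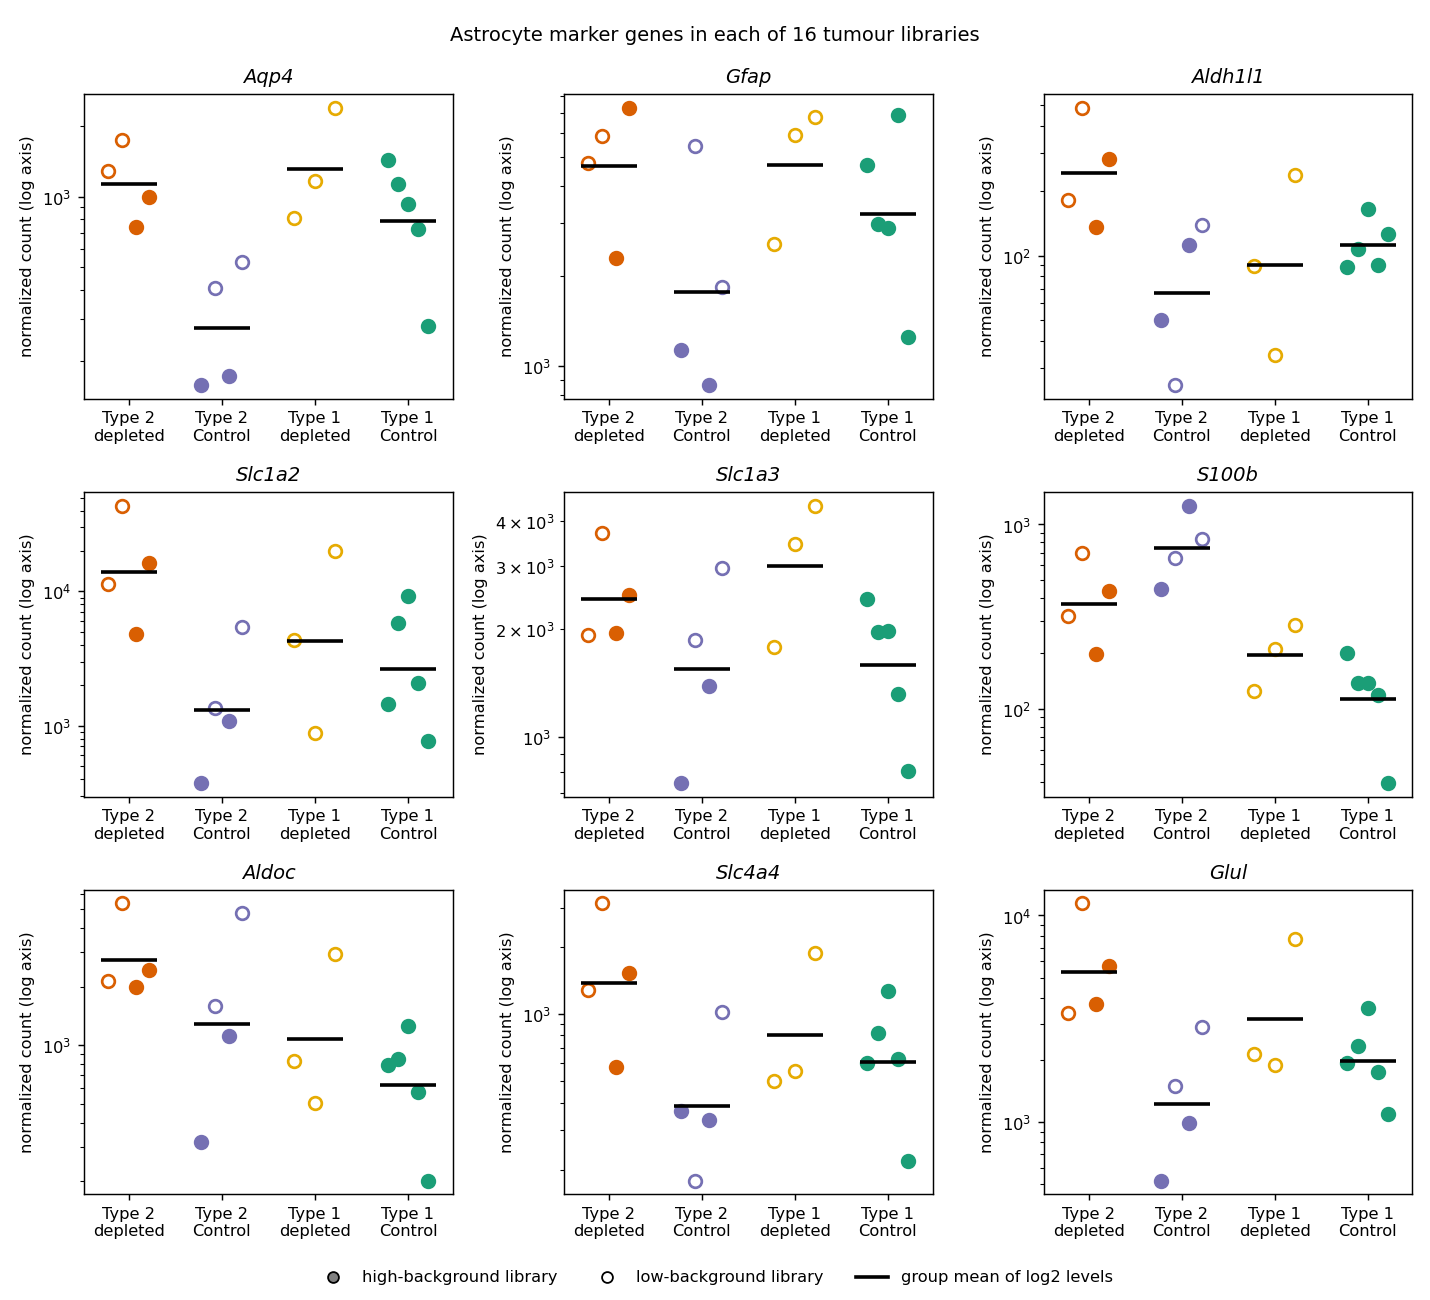
Normalized counts (log axis) of the 9 astrocyte marker genes in each of 16 tumour libraries; filled circles are high-background and open circles low-background libraries, and bars are means of the log2 levels of a group. Aqp4 and Glul are higher in every Type 2 TAM depleted library than in every Type 2 Control library, and S100b is higher in every Type 2 Control library than in every Type 1 Control library.

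In Type 2 tumours, the question is which astrocyte genes differ when TAMs are depleted. Aqp4 and Glul rose, by 4.11-fold and 4.37-fold, and 6 of the other 7 genes had positive fold changes that did not pass the test. Slc1a2 had the largest estimate of the 9, 10.6-fold higher at an adjusted p of 0.0670 (limma), and S100b was the only one with a negative estimate. Adjusted p-values are from limma-trend, fitted across 26463 genes and all 16 libraries, with Benjamini-Hochberg adjustment and a threshold of 0.05. So 2 of 9 were called, both higher, against 3.61% of all genes called in either direction, 2.37% called higher and 1.24% called lower. The median log2 fold change of the 9 was 1.82, against -0.21 over all genes tested, of which 40.6% were positive.

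Among the glutamate genes, Glul had 3384, 11431, 3747 and 5678 normalized counts in Type 2 TAM depleted tumours 1 to 4, against 522, 1501, 989 and 2894 in Type 2 Control tumours 1 to 4. The groups did not overlap, although Type 2 Control 4 came close to Type 2 TAM depleted 1. The log2 fold change was 2.13 ± 0.57 (SE; 95% interval 0.93 to 3.33; limma adjusted p = 0.0476). Slc1a2 had 11361, 43476, 4810.5 and 16257 normalized counts in Type 2 TAM depleted tumours and 375, 1358, 1080.0 and 5466 in Type 2 Control tumours. Type 2 Control 4 stood above Type 2 TAM depleted 3, and the other libraries were apart. The log2 fold change was 3.41 ± 1.00 (SE), which did not pass (limma adjusted p = 0.0670). Slc1a3 averaged 2511 ± 826 in Type 2 TAM depleted and 1740.2 ± 934 in Type 2 Control tumours (SD, n = 4 each), with overlapping groups. Its estimate was 0.65 ± 0.44 (SE; limma adjusted p = 0.471). Per kilobase, the ratio of Slc1a2 to Slc1a3 was 1.602 to 7.66 in Type 2 TAM depleted tumours and 0.33 to 1.20 in Type 2 Control tumours. The ranges of this ratio did not overlap, a description with no test. Another ratio that was computed, Gfap to Aldh1l1, did overlap (12.9 to 28.1 depleted, 8.24 to 232 control).

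For water and bicarbonate transport, Aqp4 had 1292, 1741, 745 and 1001 normalized counts in Type 2 TAM depleted tumours 1 to 4, against 157, 408, 172 and 526 in Type 2 Control tumours 1 to 4. Every depleted tumour was above every control. The log2 fold change was 2.04 ± 0.51 (SE; 95% interval 0.96 to 3.12; limma adjusted p = 0.0387). Non-overlap was seen in 3.86% of all genes in this direction and 3.39% in the other, and among the 9 in Aqp4 and Glul only. Slc4a4 had 1279, 3128, 580.3 and 1526 normalized counts in Type 2 TAM depleted tumours and 368, 179, 336 and 1017 in Type 2 Control tumours. Type 2 Control 4 again overlapped the depleted tumours. The log2 fold change of Slc4a4 was 1.82 ± 0.62 (SE; limma adjusted p = 0.120).

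Of the remaining genes, Aldh1l1 had 182, 487, 136 and 282 normalized counts in Type 2 TAM depleted tumours and 50.04, 25.04, 112 and 139 in Type 2 Control tumours. Type 2 Control 4 and Type 2 TAM depleted 3 were nearly level, so the groups overlapped. The estimate for this folate enzyme was 1.84 ± 0.58 (SE; limma adjusted p = 0.0895). Gfap averaged 5057 ± 2110 in Type 2 TAM depleted and 2317 ± 2119 in Type 2 Control tumours (SD, n = 4 each; log2 fold change 1.40, limma adjusted p = 0.225). Type 2 Control 2, with 5435 counts, lay within the depleted range of 2293 to 7294. Aldoc averaged 2982 ± 1585 in Type 2 TAM depleted and 1956 ± 1962 in Type 2 Control tumours (SD, n = 4 each; log2 fold change 1.09, limma adjusted p = 0.458). S100b averaged 412 ± 214 in Type 2 TAM depleted and 799.5 ± 348 in Type 2 Control tumours (SD, n = 4 each; log2 fold change -1.001, limma adjusted p = 0.290). For S100b, Type 2 TAM depleted 2 stood within the control range.

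Within each background set the directions were the same. Among high-background libraries (2 against 2) 8 of 9 genes were positive, with a median log2 difference of 1.89, and among low-background libraries (2 against 2) again 8 of 9, with a median of 1.58. Aqp4 differed by 2.39 in the high and 1.69 in the low set, Glul by 2.68 and 1.58, and Slc1a2 by 3.79 and 3.03. Groups did not overlap for 9 of 9 genes in the high set (8 higher and S100b lower) and for 5 of 9 in the low set (all higher). Over all genes, non-overlap was 16.5% higher and 22.3% lower in the high set, and 19.3% higher and 29.5% lower in the low set. Low-background libraries alone gave 0 calls over all genes with limma-trend, and 2863 genes had an unadjusted p under 0.05 there.

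Both calls were near the threshold. Both were lost in the table of Type 2 libraries alone (limma adjusted p = 0.113 for Aqp4 and 0.143 for Glul), in low-background libraries only (0.282 and 0.420) and with the replicate block (0.0566 and 0.0745). Aqp4 was also lost in high-background libraries only (0.0566), and Glul with quantile scaling (0.0717). Aqp4 passed without Type 2 TAM depleted 3 or 4 or Type 2 Control 2 or 4, and did not pass without Type 2 TAM depleted 1 (limma adjusted p = 0.0910), Type 2 TAM depleted 2 (0.124), Type 2 Control 1 (0.0947) or Type 2 Control 3 (0.126). Glul passed when Type 2 Control 4 was the library left out, and with no other. Without Type 2 TAM depleted 1, 2, 3 and 4 its limma adjusted p was 0.0687, 0.165, 0.0507 and 0.0632, and without Type 2 Control 1, 2 and 3 it was 0.121, 0.0513 and 0.133. Slc1a2 passed without Type 2 TAM depleted 3 (limma adjusted p = 0.04996) and without Type 2 Control 4 (0.0378). It also passed with background set as a term (0.0248), which in Type 2 is balanced between the groups, and with a filter of 50 normalized counts (0.0432).

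**Figure D2:**
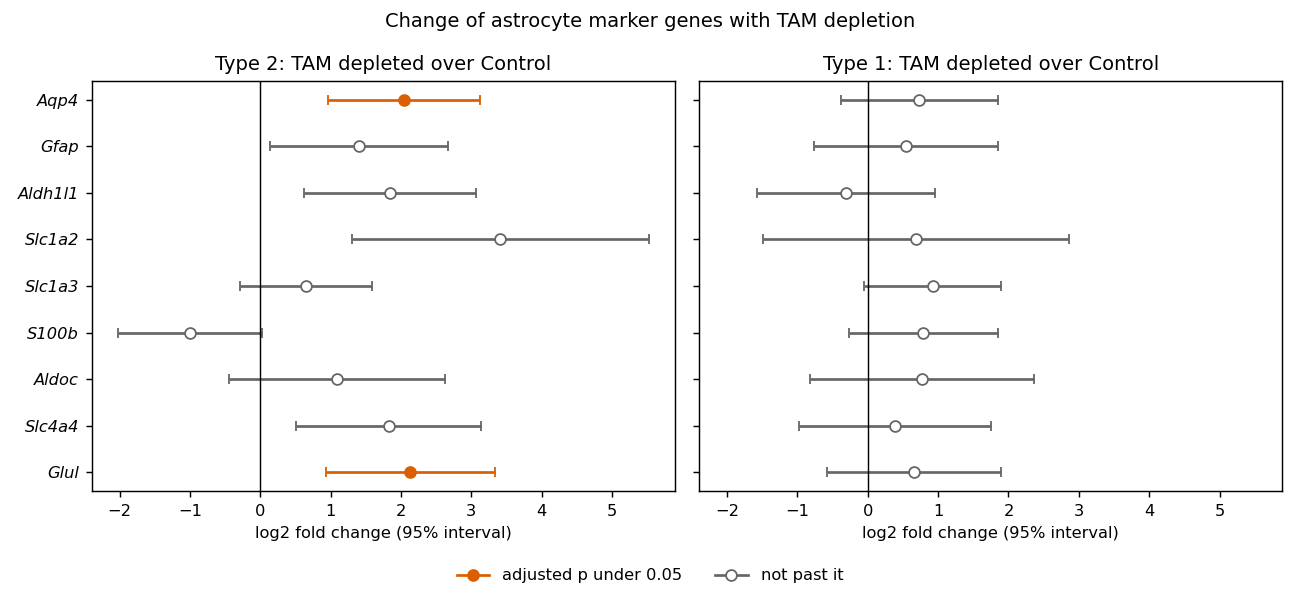
Log2 fold change of TAM depleted over Control with its 95% interval (limma-trend) for the 9 genes, Type 2 on the left and Type 1 on the right; filled orange points passed an adjusted p of 0.05. Aqp4 (2.04) and Glul (2.13) passed in Type 2, S100b is the only negative estimate there (-1.001), and the intervals of all 9 genes include 0 in Type 1.

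In Type 1 tumours none of the 9 genes was called with depletion, and neither was any other gene (0% of 26463). Over all genes 8019 had an unadjusted p under 0.05 with limma-trend and 7556 with limma-voom, which also called 0. Among the 9 genes 0 had an unadjusted p under 0.05. Estimates were positive for 8 of 9 with a median of 0.69, against -0.06 over all genes, of which 48.5% were positive. With quantile scaling Gfap, Slc4a4 and Glul turned negative, and with upper quartile scaling Slc4a4 did. With background set as a term, 7 of 9 estimates were negative, and only Slc1a3 (0.18) and S100b (0.47) were positive. The background effect in that fit came from the Type 2 libraries only, since in Type 1 background and depletion coincide. Those estimates therefore hold no Type 1 information on background. Groups did not overlap for 0 of 9 genes, against 10.5% of all genes higher and 28.6% lower. Slc1a3 came nearest, with 1783, 3443 and 4403 normalized counts in Type 1 TAM depleted tumours 1 to 3, against 2423, 1965, 1976, 1316 and 807 in Type 1 Control tumours 1 to 5. Type 1 TAM depleted 1 lay inside the control range and the other depleted tumours lay above it. The log2 fold change of Slc1a3 was 0.92 ± 0.46 (SE; limma adjusted p = 0.182). In the separately normalized table of Type 1 libraries alone, Slc1a3 passed (1.25, limma adjusted p = 0.0226), the only 1 of the 9. There 16381 of all 29708 genes tested were called, and background and depletion coincide.

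Aqp4 had 814, 1167 and 2394 normalized counts in Type 1 TAM depleted tumours and 1440.0, 1131, 929.8, 727 and 279.7 in Type 1 Control tumours. One depleted tumour was above all controls, and the estimate was 0.73 ± 0.53 (SE; limma adjusted p = 0.333). Slc1a2 had 4312, 882 and 20030.0 in Type 1 TAM depleted tumours and 1442, 5810.4, 9215, 2087 and 774 in Type 1 Control tumours. The highest library was a depleted tumour, and another depleted tumour was lower than all but 1 control. The Slc1a2 estimate was 0.69 ± 1.03 (SE; limma adjusted p = 0.634). Glul averaged 3911 ± 3302 in Type 1 TAM depleted (SD, n = 3) and 2136 ± 915 in Type 1 Control tumours (SD, n = 5; limma adjusted p = 0.424). Type 1 TAM depleted 3 was the highest of the 8 Type 1 libraries for 8 of the 9 genes, Gfap being the exception. Without it the median log2 fold change of the 9 was 0.05 and 6 of 9 were positive. Type 1 Control 5 was the lowest of the 8 for 8 genes, Aldh1l1 being the exception, and without it the median was 0.36.

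Whether depletion acted differently in the 2 kinds of tumour was tested as the difference of the responses, Type 2 minus Type 1. None of the 9 genes was called, nor any of the 26463 (0%). Limma-trend gave 2666 genes and limma-voom 3171 genes with an unadjusted p under 0.05, and both called 0. The largest positive differences were 2.72 for Slc1a2 (limma adjusted p = 0.510) and 2.15 for Aldh1l1 (0.472), and the lowest was -1.79 ± 0.69 (SE) for S100b (0.472). The median of the 9 was 1.31, against 0.16 over all genes. A call in Type 2 for Aqp4 and Glul with none in Type 1 is thus not a shown difference: their own differences were 1.31 (limma adjusted p = 0.516) and 1.47 (0.515).

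Between the control tumours of the 2 kinds, S100b rose in Type 2 Control relative to Type 1 Control, and it was the only one of the 9 that passed. It had 447, 656, 1264 and 831 normalized counts in Type 2 Control tumours 1 to 4, against 201, 138, 139, 119 and 39.7 in Type 1 Control tumours 1 to 5. All Type 2 Control tumours were above all Type 1 Control tumours. The log2 fold change was 2.71 ± 0.46 (SE; 95% interval 1.74 to 3.68), a 6.55-fold difference (limma adjusted p = 0.00268). The background was 3.09% of genes called in either direction, 2.28% called higher and 0.816% called lower. Type 2 Control lay above Type 1 Control with no overlap in 5.03% of genes and below it in 1.93%. S100b was called in all 19 alternatives, with log2 fold changes of 2.34 to 2.96, and differed by 2.72 within the high-background libraries (2 against 5).

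The other 8 markers did not pass. The median log2 fold change of the 9 genes was -0.70, against -0.23 over all genes. Of the 9, 7 were negative, and of all genes 37.8% were positive. Aqp4 averaged 316 ± 181 in Type 2 Control (SD, n = 4) and 901 ± 436 in Type 1 Control tumours (SD, n = 5). Type 2 Control 1 and 3 were below every Type 1 Control tumour and the others were not. Its log2 fold change was -1.51 ± 0.49 (SE; limma adjusted p = 0.119). Within the high-background libraries Aqp4 differed by -2.26 and passed (limma adjusted p = 0.0211), as it did with background set as a term (0.0135), with quantile (0.0168) or upper quartile scaling (0.0405) and without Type 1 Control 5 (0.0344). Within those libraries 4 of 9 genes did not overlap between groups: S100b higher, and Aqp4, Gfap (-1.71) and Glul (-1.47) lower. Over all genes 11.5% were higher and 11.4% lower without overlap there. Aldoc had an estimate of 1.03 over all libraries (limma adjusted p = 0.547) and -0.075 within the high-background set. This comparison and the Type 2 depletion comparison share the Type 2 Control libraries. The 2 comparisons gave, in the order Type 2 depletion and Type 2 Control over Type 1 Control, 2.04 and -1.51 for Aqp4, 2.13 and -0.70 for Glul, 3.41 and -0.99 for Slc1a2 and -1.001 and 2.71 for S100b.

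After depletion the 2 kinds of tumour were compared as Type 2 TAM depleted over Type 1 TAM depleted. None of the 9 genes passed, against 0.185% of genes called (49 genes), and limma gave 1 of the 9, Aldh1l1, an unadjusted p under 0.05, as it did 12.1% of all genes. Aldh1l1 averaged 272 ± 156 in Type 2 TAM depleted (SD, n = 4) and 120.5 ± 105 in Type 1 TAM depleted tumours (SD, n = 3). Its log2 fold change was 1.41 (limma adjusted p = 0.382). S100b averaged 412 ± 214 in Type 2 TAM depleted and 207 ± 80.4 in Type 1 TAM depleted tumours, a log2 fold change of 0.92 (limma adjusted p = 0.498). The 2 Type 2 tumours with low background were above all 3 Type 1 TAM depleted tumours in S100b, by 1.26, as in 12.7% of all genes. Gfap (-0.01) and Aqp4 (-0.21) were close to 0, with intervals of -1.38 to 1.36 and -1.38 to 0.96, which include falls of more than 2-fold. The median of the 9 was 0.77, against 0.11 over all genes.

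Set in order over the 4 groups, S100b was highest in Type 2 Control (799.5 ± 348), then Type 2 TAM depleted (412 ± 214), Type 1 TAM depleted (207 ± 80.4) and Type 1 Control (127 ± 58.0; SD, n = 4, 4, 3 and 5). No neighbours in this order passed the limma test. Slc1a2 and Glul were highest in Type 2 TAM depleted (18976 ± 16993 and 6060 ± 3720) and lowest in Type 2 Control tumours (2070 ± 2302 and 1477 ± 1026). Aldoc kept another order, with both Type 2 groups (2982 ± 1585 depleted, 1956 ± 1962 control) above both Type 1 groups (1423 ± 1316 depleted, 734 ± 385 control). Per kilobase, the ratio of Aldoc to Glul was 0.44 to 0.65 in Type 2 TAM depleted and 0.27 to 0.40 in Type 1 TAM depleted tumours. It was 0.62 to 1.69 in Type 2 Control and 0.19 to 0.42 in Type 1 Control tumours. For either treatment the ranges of this ratio did not overlap between the kinds of tumour, a description with no test. The ratio of Slc1a2 to Slc1a3 did overlap between the kinds, at 0.39 to 3.03 in Type 1 Control and 0.17 to 2.96 in Type 1 TAM depleted tumours. Gfap to Aldh1l1 overlapped between the control tumours (10.6 to 81.4 in Type 1 Control) but not between the depleted ones (30.6 to 184 in Type 1). How often gene pairs separate in this way was not computed.

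**Figure D3:**
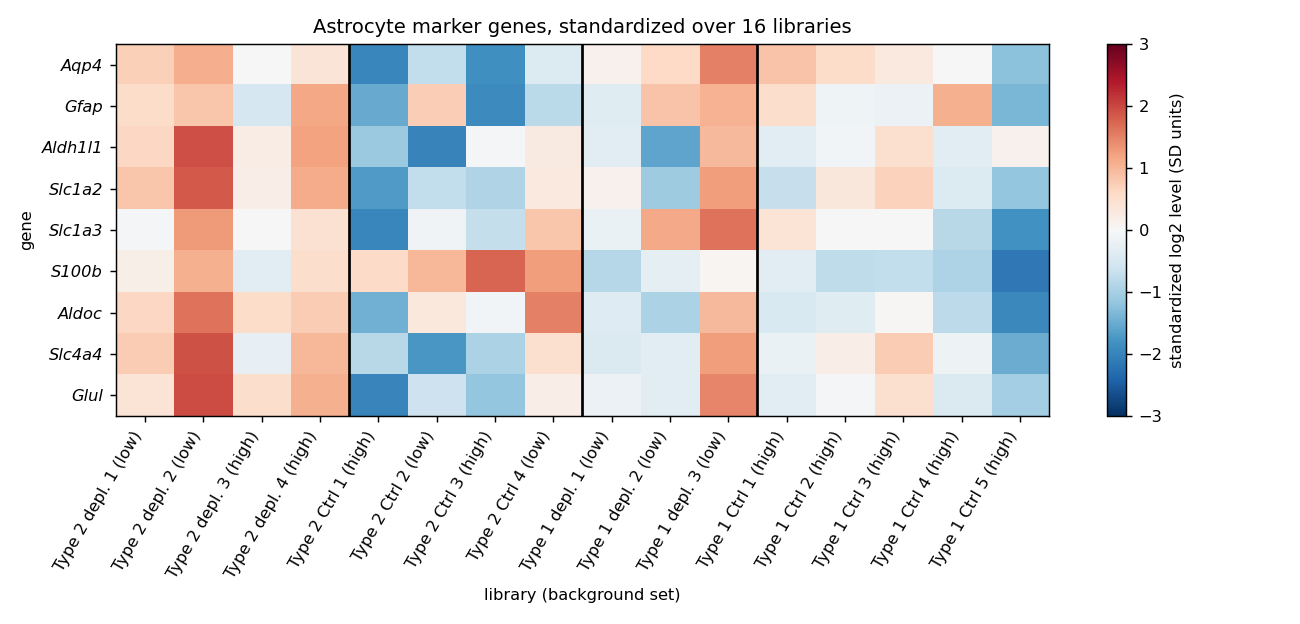
Log2 levels of the 9 genes (down the page), each standardized to mean 0 and SD 1 over the 16 libraries (across, ordered by group, with the background set in brackets). Type 2 TAM depleted 2 and Type 1 TAM depleted 3 are high in most genes, Type 2 Control 1 is low in all but S100b, and S100b is above its mean in all 4 Type 2 Control libraries.

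The 9 genes were compared with each other over libraries within each background set, as a description, since the libraries share depth, groups and background. Leaving out S100b, all 28 pairs had a positive Pearson r in the high-background set (0.41 to 0.96, n = 9) and 27 of 28 in the low-background set (-0.11 to 0.98, n = 7). The negative one was Gfap with Aldoc. By the lower of the correlations in the 2 sets, the closest pair was Slc1a2 with Glul (r = 0.96 high, 0.93 low), the transporter that takes up glutamate and the enzyme that converts it. Slc1a2 also correlated with Slc4a4 (0.89 in both sets) and Aldh1l1 (0.82 high, 0.98 low). Of the 8 pairs with S100b, 3 were positive in the high and 6 in the low set, with medians of -0.04 and 0.20. Likeness was ranked among 12868 genes outside the 9 with a mean normalized count of 50 or more, leaving out predicted or unnamed gene models. The 6 most like the mean profile of the 9 were Pdk2 (lower of the 2 correlations 0.97), Wbp2 (0.96), Dnal1 (0.95), Larp6 (0.95), Clu (0.94) and Hepacam (0.94).

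Markers of other cells moved with these genes. In Type 2 depletion the neuron list rose in 7 of 12 genes, with a median log2 fold change of 3.60 and all 12 positive. The count was 4 without Type 2 TAM depleted 1, 2 without Type 2 TAM depleted 2 or Type 2 Control 3, and 11 without Type 2 Control 4. It was 3 with the replicate block and 0 in low-background libraries only, where the median was 4.11. The largest called changes were those of Slc17a7, a vesicular glutamate transporter of neurons, at 5.05 (limma adjusted p = 0.0186), Snap25, a synaptic vesicle fusion protein, at 4.58 (0.00932), and Syn1, a synaptic vesicle protein, at 3.66 (0.0176). Snap25 passed with any 1 library left out. Slc17a7 did not pass without Type 2 TAM depleted 1 (0.0501) or 2 (0.0583) or Type 2 Control 3 (0.0536), nor Syn1 without Type 2 TAM depleted 2 (0.0522) or Type 2 Control 3 (0.0662). The summed neuron level was 22834 to 116730 normalized counts in Type 2 TAM depleted and 3006 to 14698 in Type 2 Control tumours. The mature oligodendrocyte list had 0 of 10 calls, all 10 positive and a median of 1.38, with sums of 10698 to 34535 in Type 2 TAM depleted and 2352 to 14663 in Type 2 Control tumours. None of these markers was at 0 reads in any library. Slc1a2 correlated with the mean of the neuron list at r = 0.90 in the high and 0.93 in the low set. For Slc1a2 the values were 0.89 and 0.94 with the other astrocyte markers, and 0.66 and 0.95 with the mature oligodendrocyte list. S100b correlated with the oligodendrocyte precursor list at 0.83 and 0.81. For S100b they were 0.87 and 0.69 with the reactive astrocyte list, and 0.54 and 0.99 with the endothelial list. The correlations did not single out 1 kind of cell. The part of these other cells in the changes of the 9 genes was not tested.

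**Figure D4:**
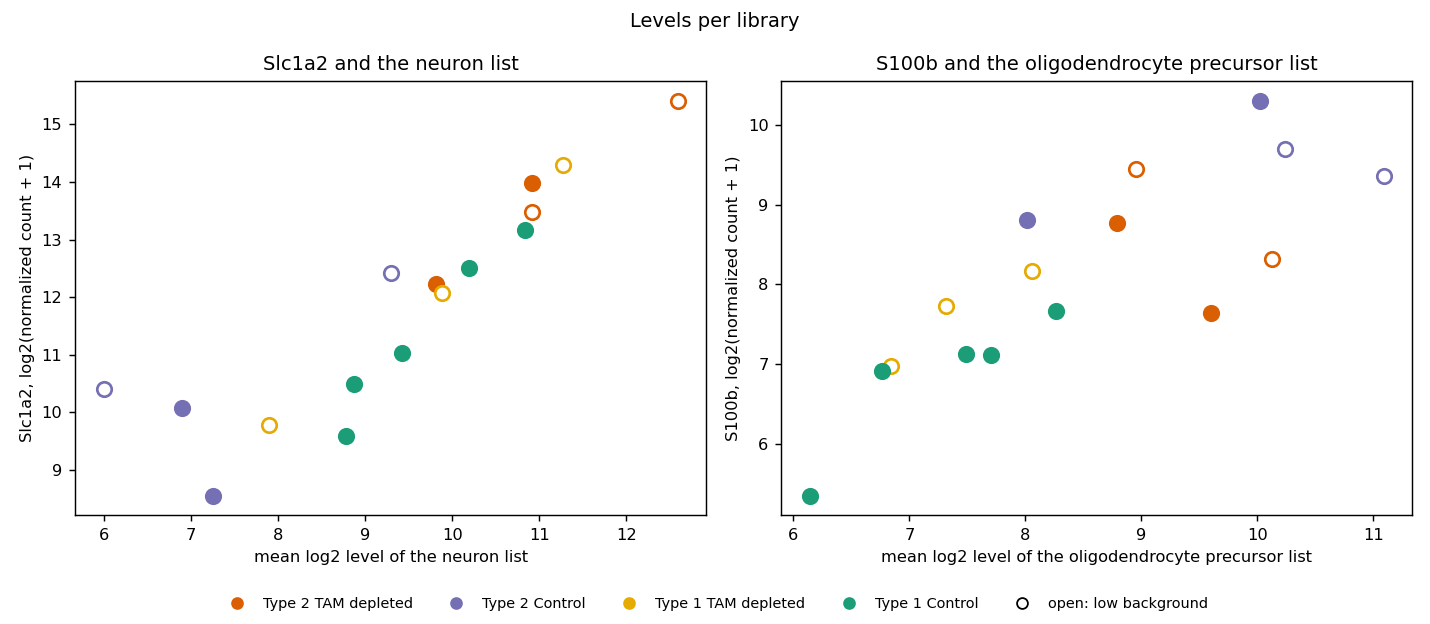
Log2(normalized count + 1) of Slc1a2 against the mean log2 level of 12 neuron genes (left) and of S100b against that of 8 oligodendrocyte precursor genes (right), 1 point per library, coloured by group, open where background is low. Slc1a2 follows the neuron list in both background sets (r = 0.90 and 0.93), and S100b follows the precursor list (r = 0.83 and 0.81). Lists not drawn gave similar values, such as the other astrocyte markers for Slc1a2 (0.89 and 0.94) and reactive astrocyte genes for S100b (0.87 and 0.69).

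Other genes of astrocyte function were counted list by list for Type 2 depletion. Of the 18 other astrocyte markers 1 rose, 17 were positive and the median was 1.08. The one called was Ntsr2, a neurotensin receptor of astrocytes, at 432 ± 264 normalized counts in Type 2 TAM depleted and 110 ± 80.1 in Type 2 Control tumours (SD, n = 4 each; log2 fold change 2.18, limma adjusted p = 0.0342). It did not pass without Type 2 TAM depleted 1 or 2 or Type 2 Control 1 or 3 (limma adjusted p 0.0714 to 0.119). Of 12 partners in glutamate, potassium and water handling, 0 were called by limma and 9 were positive (median 0.75), and of 12 transcriptional regulators of astrocytes 0 were called and 8 were positive (median 0.33). Among 18 reactive astrocyte genes 5 were positive, the median was -0.93, and Cp, the ferroxidase ceruloplasmin, fell by 1.51 on the log2 scale (limma adjusted p = 0.0217). Cp did not pass without Type 2 TAM depleted 1 (0.0633) or Type 2 Control 3 (0.0763). The Gfap estimate in this comparison was 1.40 and was not called. The part of macrophages and other cells in the reactive list's change was not tested. Among 13 paralogs of the 9 genes 5 were positive and the median was -0.45. The one called was Slc4a10, a bicarbonate transporter of neurons, which rose by 2.77 (limma adjusted p = 0.0329). It did not pass without Type 2 TAM depleted 1 or 2 or Type 2 Control 2 or 3 (0.0570 to 0.111).

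In the same comparison the macrophage and microglia list fell in 2 of 12 genes with 0 positive (median -1.12). Its summed level was 2076, 2255, 1903 and 4111 normalized counts in Type 2 TAM depleted tumours 1 to 4, against 3778, 9890, 3504 and 7788 in Type 2 Control tumours 1 to 4. Type 2 TAM depleted 4 lay above Type 2 Control 1 and 3, so the groups overlapped. The median was -0.30 with 3 of 12 positive in the high-background set and -1.96 with 0 positive in the low-background set. The called genes were Ptprc, which encodes the leukocyte surface protein CD45, at -1.75 (limma adjusted p = 0.0335), and Fcer1g, an Fc receptor chain, at -1.69 (0.0411). Of the 8 fits with 1 library left out, Ptprc kept its call in those without Type 2 TAM depleted 2 or 4 (0.0506 to 0.0993 in the others), and Fcer1g in the one without Type 2 TAM depleted 4 (0.0558 to 0.114 in the others). Over all 20 alternatives they were called in 11 and 9. In Type 1 the same list had 0 calls by limma, 2 of 12 positive and a median of -0.09, with sums of 1861 to 3482 in Type 1 TAM depleted and 1796 to 3566 in Type 1 Control tumours. In Type 2 depletion the precursor list had 1 call, Sox10, which drives oligodendrocyte fate, at -2.01 (limma adjusted p = 0.0424), called in 9 of 20 alternatives. Of the 8 left-out fits Sox10 kept its call in the one without Type 2 Control 2 (0.0544 to 0.115 in the others). The medians were -0.91 for 10 proliferation genes, -0.30 for 8 endothelial genes, 0.05 for 8 neural stem genes and -0.29 for 5 ependymal genes, with 0 calls in each.

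Between the control tumours, Type 2 Control over Type 1 Control, the reactive astrocyte list rose in 7 of 18 genes with 16 positive (median 1.18). Serpina3n, a secreted protease inhibitor, rose by 2.97 (limma adjusted p = 0.00144), Cp by 2.60 (0.000149) and Vim, an intermediate filament protein that glioma, endothelial and stromal cells also make, by 2.24 (0.00444). These 3 genes passed in all 19 alternatives, and within the high-background libraries the list had 6 calls and a median of 1.19. The macrophage and microglia list had 0 calls by limma, all 12 genes positive and a median of 1.19, with sums of 3504 to 9890 normalized counts in Type 2 Control and 1796 to 3566 in Type 1 Control tumours, and its part in the reactive list's change was not tested. Gfap, the filament gene of the 9, had a negative estimate that did not pass (-0.87 ± 0.57 SE; limma adjusted p = 0.540). The 18 other astrocyte markers had 0 calls by limma and a median of 0.04. The precursor list rose in 4 of 8 genes with all 8 positive (median 2.505), beside S100b: Sox10 by 4.56 (limma adjusted p = 9.31e-05), Gpr17, a receptor of maturing precursors, by 3.85 (0.00689), and Cspg4, the NG2 proteoglycan, by 3.68 (0.00116). All 3 passed in all 19 alternatives. The summed precursor level was 5451 to 32176 normalized counts in Type 2 Control and 687.5 to 3526 in Type 1 Control tumours, and its part in the S100b difference was not tested. Neuron genes fell in 3 of 12 (median -2.24), namely Rbfox3, a neuronal splicing factor, at -3.10 (limma adjusted p = 0.00200), Stmn2, a microtubule regulator of neurons, at -3.09 (0.0246), and Snap25 at -3.0 (0.0274). Rbfox3 passed in all 19 alternatives, Stmn2 in 14 and Snap25 in 13. The count was 1 without Type 1 Control 2 or 4 or Type 2 Control 3, and 6 in high-background libraries only. Among the partners Dag1, the dystroglycan that anchors Aqp4 at endfeet, rose by 2.11 (limma adjusted p = 0.000954), and it passed in all 19 alternatives. The Aqp4 estimate there was -1.51. Stat3, a transcription factor of reactive astrocytes, was the 1 called of 12 regulators, at 1.38 (limma adjusted p = 0.0208), and it passed in 14 of 19 alternatives. Cldn11, a tight junction protein of myelin, was the 1 called of 10 mature oligodendrocyte genes, at 2.80 (limma adjusted p = 0.0366; 13 of 19 alternatives). Sox11, a transcription factor of immature neural cells, was the 1 called of 8 neural stem genes, at -3.18 (0.0109; 17 of 19 alternatives). Leaving out single libraries ended the call of Cldn11 in 5 of 9 fits, of Stmn2 in 4, of Snap25 in 5, of Stat3 in 3 and of Sox11 in 1.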

How the data were processed

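Libraries were prepared with the SMART-Seq v4 kit for low inputs after TRIzol and miRNeasy extraction, per the labels' protocols. The submitters' processing notes name STAR 2.7.8a, the build GRCm38 and DESeq2, and no counting tool or annotation. The authors deposited log2-scale, variance-stabilized normalized values in 3 tables, 1 of all 16 libraries and 1 per tumour kind. They were inverted to normalized counts using the lowest value of each table (3.74, 2.39 and 4.87). The recovered reads were whole in 100% of values (tolerance 0.05 reads). The design had assumed deposited linear normalized counts.

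The 26463 genes tested reached a normalized count of 10 in 3 or more libraries. Their log2(normalized count + 1) values were fitted by limma-trend (R 4.3.3, limma 3.58.1). This was 1 fit of 4 group means over 16 libraries (12 residual degrees of freedom, prior 4.74), 2-sided, Benjamini-Hochberg adjusted, threshold 0.05. A count model was not the main test because the deposited unit is log2. Limma-voom on the recovered reads was an alternative. Other alternatives were pseudocounts, filters, scalings, background set, replicate number, single tables and left-out libraries. The fit was tested on simulated counts with changes placed in the Type 2 TAM depleted libraries. These counts had the same dispersion for every gene and no background sets. The simulation therefore does not cover the spread or the background of the libraries described here. Background sets were split at 2000 receptor reads per M reads. Replicate libraries all differed by more than sampling noise: the closest pair had a chi-square of 9.07 per degree of freedom. Reads carry no molecular identifiers.

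The 9 genes and 13 other gene lists were chosen with earlier results of these data known. The text names the 9 genes, up to 3 called genes of each other list with the largest change, and the 6 genes most alike. Likeness is the lower of the Pearson correlations in the 2 background sets. Python 3.11.15 was used for summaries.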

Additional observations from a re-analysis of the deposited data

How the results depend on the processing

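Of 51 alternative counts of called genes among the 9, 10 moved beyond 1.5 times, and of 48 with a library left out, 7. For Type 2 depletion (2 genes) the count was 3 with background set as a block or a filter of 50 (Slc1a2 added), 1 in high-background libraries only, 0 in low-background libraries only, 1 with quantile scaling, 0 in the Type 2 table alone, and 0 to 3 with 1 library left out. For Type 2 Control over Type 1 Control (1 gene) it was 2 with background set as a block, in high-background libraries only, and with quantile or upper quartile scaling, and 1 to 2 with 1 library left out. For Type 1 depletion (0 genes) it was 1 in the Type 1 table alone. It was 0 to 0 with 1 library left out there, for the difference of responses and for Type 2 over Type 1 TAM depleted. Over all genes Type 2 depletion gave 956 calls (627 higher, 329 lower), 674 higher and 618 lower with upper quartile scaling, 1248 in all with limma-voom, 2635 with background set as a block, 580 in high-background libraries, 0 in the Type 2 table alone with limma (3194 at an unadjusted p under 0.05), and 100 to 1258 with 1 library left out. Type 2 Control over Type 1 Control gave 603 higher and 216 lower, 1079 and 725 with quantile and 626 and 446 with upper quartile scaling, 902 and 1441 with limma-voom, 259 and 88 with the replicate block, and 510 to 1141 in all with 1 library left out. Type 2 over Type 1 TAM depleted gave 49 calls, 215 with background set as a block, 31 with quantile scaling, 20 in low-background libraries, 16 with the replicate block and 12 to 234 with 1 library left out. The difference of responses gave 0, and 166 with background set as a block. In every fit with this block, the background effect was estimated from the Type 2 libraries only. In Type 2 depletion the median of all genes moved to -0.41 with upper quartile (the 9 genes 1.61) and -0.05 with quantile scaling (1.36). In Type 1 depletion it moved to -0.44 (0.30) and 0.06 (0.04).

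Deviations from the group means were correlated between depleted and control libraries of equal replicate number (-0.05, -0.16 and 0.37 in Type 1, -0.67, 0.50, 0.30 and -0.60 in Type 2). Only Type 1 TAM depleted 3 matched the control of its own number best. The labels do not say that a number marks anything shared, and so few correlations cannot show whether the samples were paired. With the replicate block Type 2 depletion called 0 of the 9 genes (Aqp4 limma adjusted p = 0.0566, Glul 0.0745) and 297 of all genes.

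Of 459 single-gene values under other settings 424 kept direction and call, 8 lost the call, 7 gained it and 20 changed sign, none of them called. Type 1 depletion, with background set as a block, gave -0.41 for Aqp4, -0.49 for Gfap, -1.02 for Slc1a2, -0.64 for Aldoc, -0.29 for Slc4a4 and -0.32 for Glul. Quantile scaling gave -0.11 for Gfap, -0.21 for Slc4a4 and -0.043 for Glul, upper quartile scaling -0.0020 for Slc4a4, and the Type 1 table alone 0.014 for Aldh1l1. The difference of responses for Slc1a3 was 0.47 with the background block, and Aldoc in Type 2 Control over Type 1 Control was -0.075 in high-background libraries. Type 2 over Type 1 TAM depleted gave, with the background block, 0.36 for Aqp4, 0.50 for Gfap and 0.060 for Slc1a3, in low-background libraries 0.19 for Aqp4 and 0.18 for Gfap, and for Gfap 0.13 with quantile and 0.064 with upper quartile scaling. With 1 library left out, signs changed in Type 1 depletion for Aldh1l1 (-1.004 to 0.37), Slc1a2 (-0.43 to 1.82) and Slc4a4 (-0.22 to 0.73), in the difference of responses for Slc1a3 (-0.65 to 0.037) and Aldoc (-0.35 to 1.04), in Type 2 Control over Type 1 Control for Slc1a3 (-0.35 to 0.31), and in Type 2 over Type 1 TAM depleted for Aqp4 (-0.55 to 0.22) and Gfap (-0.45 to 0.33). The cause was not tested.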

Other observations

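Among the 13 paralogs, Slc1a5, a neutral amino acid transporter of the same family as Slc1a2 and Slc1a3, fell in Type 2 TAM depleted relative to Type 1 TAM depleted tumours, and it was the only gene called there in all 13 other lists. It averaged 121 ± 30.8 normalized counts in Type 2 TAM depleted (SD, n = 4) and 673 ± 267 in Type 1 TAM depleted tumours (SD, n = 3). The difference was -2.44 ± 0.43 on the log2 scale (SE; limma adjusted p = 0.0240). It did not pass without Type 1 TAM depleted 1 (0.229) or 2 (0.159), without Type 2 TAM depleted 2 (0.0550), 3 (0.0513) or 4 (0.0602), in low-background libraries only (0.339), with quantile scaling (0.0681) or with the replicate block (limma adjusted p = 0.111). The Slc1a2 and Slc1a3 estimates in that comparison were 1.72 and -0.31, neither called. Of the 13 paralogs 9 were positive there, with a median log2 fold change of 0.43.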
